A study of Mus musculus with 4 samples.

Results

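The genes described here encode the machinery that copies DNA and divides the cell, together with the cyclins, kinases and transcription factors that switch it on. They were given as a list of 58 gene symbols, and a gene was measured where the array annotation assigned a probe set, the group of probes read as 1 value, to that symbol alone. By that rule 56 of the 58 were measured, among 22180 measured genes in all. Ccnb1 and Ccne2 were not analysed here, since no probe set carried either symbol alone. Membership followed the listed symbols, and no measured value entered the rule, although the list was drawn up with earlier results of these data known.

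The tested cells were mouse Ly6C-high monocytes, purified from the pooled bone marrow of 3 mice and cultured for 24 h with 100 nM all-trans retinoic acid, the vitamin A derivative that acts through nuclear receptors (2 arrays, replicates 1 and 2). Control cells had the same origin and received DMSO from the start (2 arrays, replicates 1 and 2). Culture medium of both groups held 20 ng per ml of GM-CSF and as much interleukin 4, cytokines that steer monocytes toward dendritic cells. In the sources used here no strain, age or allele was given. The labels do not say whether replicates were separate cultures, so the p-values reflect array-to-array spread that could be purely technical.

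A cell enters division in the G1 phase, when D-type cyclins bind Cdk4 or Cdk6 and release the E2F transcription factors, while small inhibitor proteins oppose these kinases. E2F factors then turn on the genes that load the Mcm helicase onto DNA and synthesise it, and Mybl2 and Foxm1 carry the programme into mitosis. GM-CSF is a mitogen for myeloid precursors, and monocytes fresh from marrow can still divide. Retinoic acid is known to restrain division during the maturation of several myeloid cell lines.

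Promoter windows from RefSeq (assembly GRCm38.p6, from 250 bases before to 50 after a gene's start) were found for 46 of the 56 genes, as 51 windows. None was matched for Ccnd1, Ccnd2, Myc, Foxm1, Gmnn, Mcm4, Ccna2, Aurkb, Kif20a or Tpx2. Each window was searched on both strands for the cell cycle homology region, or CHR (TTTGAA or TTCGAA), for an E2F site (TTTCGCGC or TTTGGCGC), for the CCAAT box (CCAAT) and for the retinoic acid response elements DR2 and DR5. Of the 17 windows of mitotic genes, 14 (82.4%) held a CHR, against 19.2% of all 32851 windows, and all 14 held a CCAAT box as well, against 7.52% of all windows with both. Of the 19 windows of replication genes, 6 (31.6%) held an E2F site, against 0.813% of all windows, and 4 (21.1%) held a CHR. DR2 and DR5 matched 0 of the 51 windows, and 0.268% and 0.0974% of all windows. The windows of the listed genes were richer in G and C than the rest, with a median G and C content of 58% against 52.7%. A match is a string of letters and not a shown binding site.

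Windows are printed for E2f2, whose level fell most; for Mki67, the standard marker of dividing cells; and for Mcm5 and Bub1b, which had the highest difference among the Mcm helicase genes and among the mitotic genes. E2f2, Mcm5 and Bub1b were thus picked by their values, the last pair after these had been seen. Capitals mark CHR, E2F and CCAAT matches on either strand. The E2f2 window lies at chr4:136172024-136172323 on the plus strand, with an E2F match beginning at base 40 after the start and a CCAAT box at -13; a second E2f2 start in the table, at chr4:136180532-136180831, held a CHR at -31. The Mki67 window lies at chr7:135716330-135716629 on the minus strand, with CHR matches at -116 and -98. The Mcm5 window lies at chr8:75109259-75109558 on the plus strand, with overlapping E2F matches on opposite strands at -153 and -149. The Bub1b window lies at chr2:118597961-118598260 on the plus strand, with CHR matches at -188 and 41.
E2f2: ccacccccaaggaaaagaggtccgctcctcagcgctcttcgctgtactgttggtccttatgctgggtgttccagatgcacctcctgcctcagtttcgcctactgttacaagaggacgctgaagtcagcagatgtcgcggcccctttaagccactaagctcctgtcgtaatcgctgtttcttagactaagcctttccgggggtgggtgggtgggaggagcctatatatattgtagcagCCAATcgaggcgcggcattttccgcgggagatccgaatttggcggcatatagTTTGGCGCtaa
Mki67: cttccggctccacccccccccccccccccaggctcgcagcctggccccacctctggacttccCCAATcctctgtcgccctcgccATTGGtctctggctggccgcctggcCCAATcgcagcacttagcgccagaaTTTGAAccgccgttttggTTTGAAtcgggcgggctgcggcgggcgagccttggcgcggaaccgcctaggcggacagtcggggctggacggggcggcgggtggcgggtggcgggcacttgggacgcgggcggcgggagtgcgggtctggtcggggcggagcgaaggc
Mcm5: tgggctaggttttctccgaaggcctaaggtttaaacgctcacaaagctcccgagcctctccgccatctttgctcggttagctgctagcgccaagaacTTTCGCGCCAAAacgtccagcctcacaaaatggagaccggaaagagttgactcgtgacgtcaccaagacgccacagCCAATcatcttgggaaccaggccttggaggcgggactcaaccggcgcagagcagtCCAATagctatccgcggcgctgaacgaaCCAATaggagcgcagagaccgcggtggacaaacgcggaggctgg
Bub1b: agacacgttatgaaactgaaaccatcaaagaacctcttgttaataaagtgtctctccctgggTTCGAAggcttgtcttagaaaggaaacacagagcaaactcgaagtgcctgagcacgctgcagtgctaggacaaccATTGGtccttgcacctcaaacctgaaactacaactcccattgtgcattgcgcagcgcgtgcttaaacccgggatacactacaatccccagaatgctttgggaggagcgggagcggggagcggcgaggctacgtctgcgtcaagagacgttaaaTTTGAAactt

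Across the 4 arrays, median intensities were 80.0 and 81.8 with retinoic acid, against 81.3 and 81.2 with DMSO. Of 9 measured monocyte markers, among them Ly6c2, Ccr2 and Csf1r, 0 passed as changed and 0 lay under the dim level, a log2 intensity of 6.35 set from olfactory and vomeronasal receptor genes that these cells should not use. The monocyte markers summed to an intensity of 30050 to 31857 with retinoic acid, against 26240 to 27171 with DMSO. On both retinoic acid arrays 5 of the 9 read higher than on either DMSO array. The largest log2 differences were those of Itgam (0.66) and Fcgr1 (0.60). Ly6c2, Ccr2 and Csf1r read lower on both, at -0.19, -0.34 and -0.01. Among all genes, 25.0% read higher and 23.0% lower on both. Of 12 markers of dividing marrow progenitors, Ms4a3 passed as lower (log2 difference -0.64, limma adjusted p = 0.0476) and Sox4 alone lay under the dim level on every array. The largest difference of the 12 was that of Prtn3, at 0.73, which did not pass (limma adjusted p = 0.0601). On both retinoic acid arrays 2 of the 12 read higher than on either DMSO array, Prtn3 and Elane, and 6 read lower. The summed intensity of the progenitor list was 13874 to 14580 with retinoic acid and 13189 to 14000 with DMSO. Neutrophil markers summed to 9184 to 9354 with retinoic acid, against 11048 to 11483 with DMSO. Of the 9, Cxcr2 passed as lower (log2 difference -1.15, limma adjusted p = 0.0167) and Retnlg, under the dim level on every array, passed as higher. Cxcr2 read 10.25 and 10.24 with retinoic acid, against 11.50 and 11.29 with DMSO. The other 7 neutrophil markers did not pass, and the largest of their log2 differences in size was -0.15 (S100a9). Of the 10 lymphoid markers, 5 lay under the dim level on every array and Cd79b passed as higher (log2 difference 0.65). They summed to 896 to 909 with retinoic acid, against 788 to 798 with DMSO. Of 6 erythroid and mast cell markers 0 passed, 3 (Klf1, Gata1 and Cpa3) lay under the dim level on every array, and sums were 390 to 395 with retinoic acid, against 401 to 407 with DMSO. The part of such cells in the results below was not tested, and in bulk RNA fewer cells of a type and less RNA per cell cannot be told apart.

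At 24 h with retinoic acid, most of the division machinery stayed near its DMSO level, and 3 genes of its entry switch passed as changed. The cyclin gene Ccnd2 rose 3.85-fold, Ccnd3 was 1.87-fold lower and the transcription factor gene E2f2 was 2.34-fold lower. The other 53 genes did not pass, and their log2 differences ran from -0.36 to 0.40. Of the 56 genes, 1 rose (1.79%) and 2 fell (3.57%) at a limma adjusted p under 0.05, set beside 1.28% and 1.79% of all 22180 genes and 2.56% and 3.79% of the 7764 genes at least as bright as the dimmest listed gene. These shares are near those of genes at large. The 3 calls depend on the fit: with 1625 probe sets of constant value kept, Ccnd2, Ccnd3 and E2f2 did not pass (limma adjusted p = 0.0789, 0.0896 and 0.0811). The median log2 difference was 0.02 over the listed genes and 0.01 over all genes. By size, 42 of the 56 genes differed by under 1.2-fold, as did 76.2% of the 7764 bright genes.

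**Figure D1:**
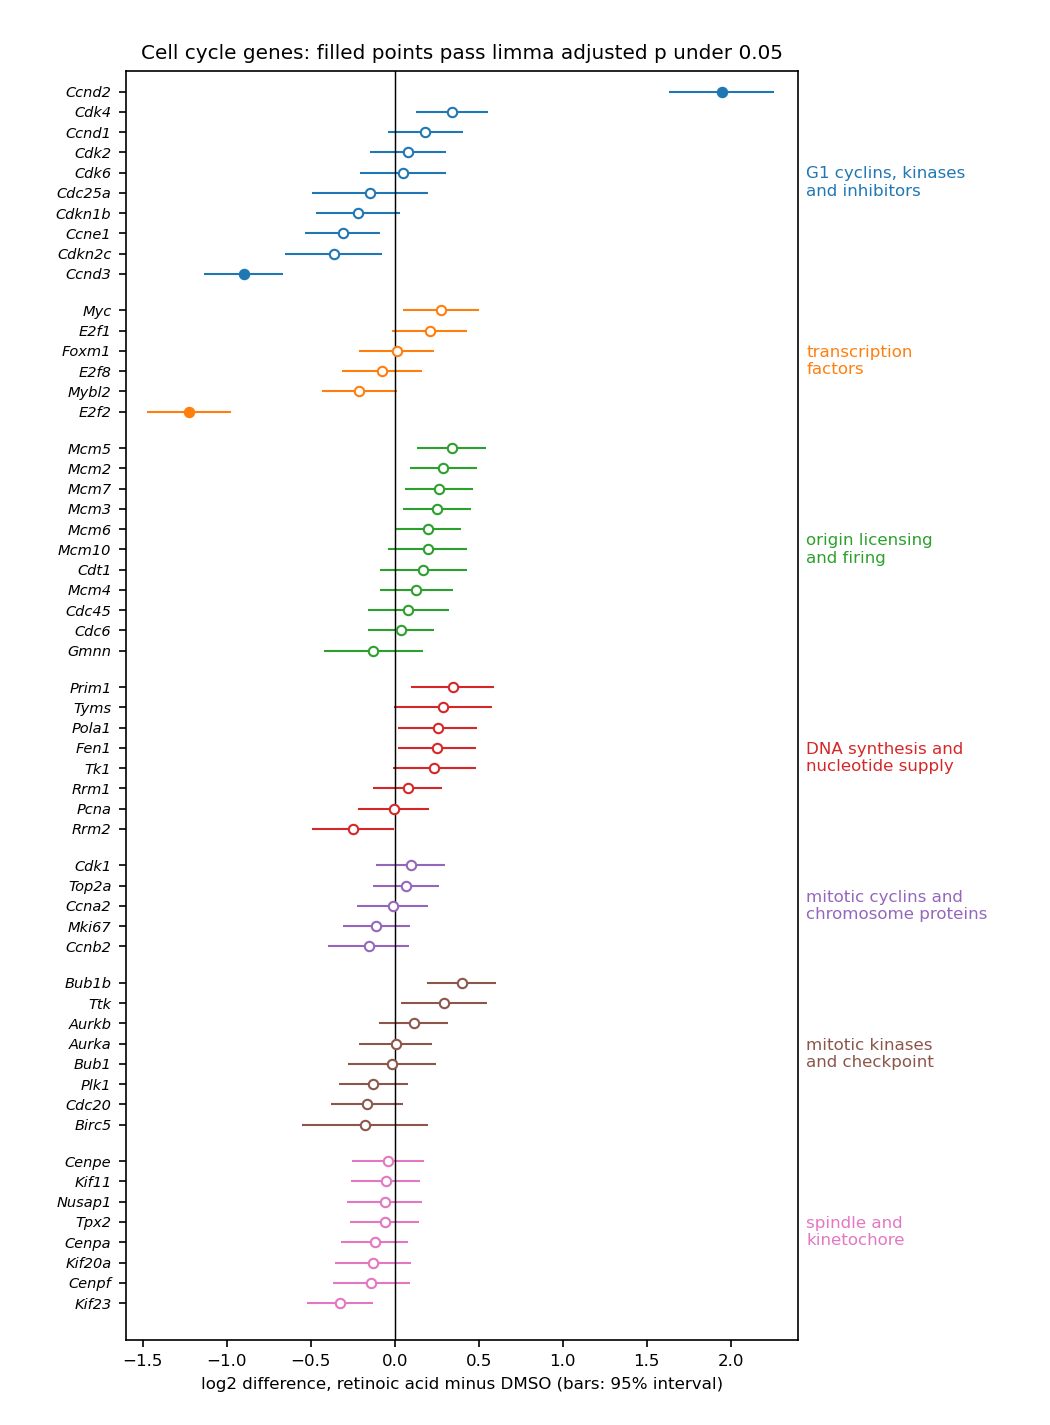
Log2 difference of each of the 56 genes, retinoic acid minus DMSO, with limma's 95% interval, grouped by role; filled points passed an adjusted p under 0.05. Ccnd2 at 1.95, Ccnd3 at -0.90 and E2f2 at -1.23 stand apart, and the other 53 points lie between -0.36 and 0.40.

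All 56 genes lay above the dim level on average, with means over the 4 arrays from 7.90 (Cdkn2c) to 12.28 (Mki67) in log2 intensity, while 9418 of the 22180 genes lay under it. Intensities of different probe sets depend on their probes as well as on RNA, so they are not ranked against each other. Mki67, which encodes the Ki-67 protein of dividing cells, read 12.21 and 12.23 with retinoic acid, against 12.35 and 12.31 with DMSO. Top2a, the topoisomerase that untangles replicated chromosomes, read 11.66 and 11.67 with retinoic acid, against 11.60 and 11.59 with DMSO. RNA of these proliferation markers was measured well above background in both conditions.

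Among the D-type cyclins, which couple growth factor signals to Cdk4 and Cdk6, 1 gene rose, 1 fell and 1 did not pass. Of all genes 1.28% passed as higher and 1.79% as lower, and of the bright genes 2.56% and 3.79%. Ccnd2 (probe set 17471222) read 12.08 and 12.13 with retinoic acid, against 10.30 and 10.02 with DMSO (log2 intensity), so that the groups did not overlap and the DMSO arrays spread the more. Its log2 difference was 1.95 ± 0.12 (SE, n = 2 per group; limma adjusted p = 0.0074), with a 95% interval of 1.63 to 2.26. Ccnd3 (probe set 17338269) read 9.73 and 9.82 with retinoic acid, against 10.74 and 10.61 with DMSO, again without overlap. Its log2 difference was -0.90 ± 0.09 (SE; limma adjusted p = 0.0218), with an interval of -1.14 to -0.66. Ccnd1 read 9.68 and 9.64 with retinoic acid, against 9.42 and 9.54 with DMSO, a log2 difference of 0.18 ± 0.09 that did not pass (limma adjusted p = 0.464).

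The kinases that D-type cyclins activate differed less. Cdk4 read 12.05 and 11.97 with retinoic acid, against 11.63 and 11.70 with DMSO. The groups did not overlap, and the log2 difference of 0.34 ± 0.08 did not pass (limma adjusted p = 0.173). Cdk6 differed by 0.05 ± 0.10, with overlapping arrays. Ccne1, the cyclin that takes over late in G1, read 9.68 and 9.79 with retinoic acid, against 10.08 and 10.01 with DMSO, and its log2 difference of -0.31 ± 0.09 did not pass (limma adjusted p = 0.221). Its partner Cdk2 differed by 0.08 ± 0.09, and Cdc25a, the phosphatase that activates Cdk2, by -0.15 ± 0.13, neither passing.

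Both listed inhibitors read lower on each retinoic acid array than on either DMSO array, without passing. Of all genes 23.0% also read lower on both, as did 29.1% of the bright genes. Cdkn2c, which blocks Cdk4 and Cdk6, read 7.81 and 7.63 with retinoic acid, against 7.99 and 8.17 with DMSO (log2 difference -0.36 ± 0.11, limma adjusted p = 0.265). Cdkn1b, which binds cyclin and kinase complexes of G1, read 8.46 and 8.30 with retinoic acid, against 8.64 and 8.55 with DMSO (log2 difference -0.22 ± 0.10, limma adjusted p = 0.433). Outside the list, 2 of 29 other genes of G1 control passed, both as lower (6.90%, beside 1.79% of all genes). Cdkn1a, the p53-induced inhibitor of cyclin-dependent kinases, read 11.39 and 11.22 with retinoic acid, against 12.19 and 12.05 with DMSO, and was 1.76-fold lower (log2 difference -0.82 ± 0.10, limma adjusted p = 0.0388). Tob1, an antiproliferative protein of the BTG family, read 6.53 and 6.50 with retinoic acid, against 7.08 and 7.14 with DMSO, and was 1.51-fold lower (log2 difference -0.59 ± 0.08, limma adjusted p = 0.042). With any 1 array left out neither passed, at adjusted p = 0.125 to 0.201 for Cdkn1a and 0.171 to 0.278 for Tob1, nor with the constant probe sets kept (0.131 and 0.0787), and Tob1 did not pass with an intensity trend in the variance prior (0.0507). The largest difference of the 29 was that of Mycn, a growth promoter of the Myc family named after its value was seen. It read 6.80 and 7.06 with retinoic acid, against 5.97 and 6.14 with DMSO, the DMSO arrays under the dim level, and its log2 difference of 0.88 ± 0.13 did not pass (limma adjusted p = 0.0519). Btg2, also named after its value was seen, read 7.83 and 7.82 with retinoic acid, against 8.72 and 8.47 with DMSO. Its log2 difference of -0.77 ± 0.11 did not pass either (limma adjusted p = 0.0527). Over 13 alternatives Cdkn1a passed in 6, Mycn in 6, Tob1 in 5 and Btg2 in 4. The other inhibitors Cdkn1c, Cdkn2a, Cdkn2b and Cdkn2d differed by 0.07, -0.04, -0.06 and 0.08 on the log2 scale, and none passed.

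**Figure D2:**
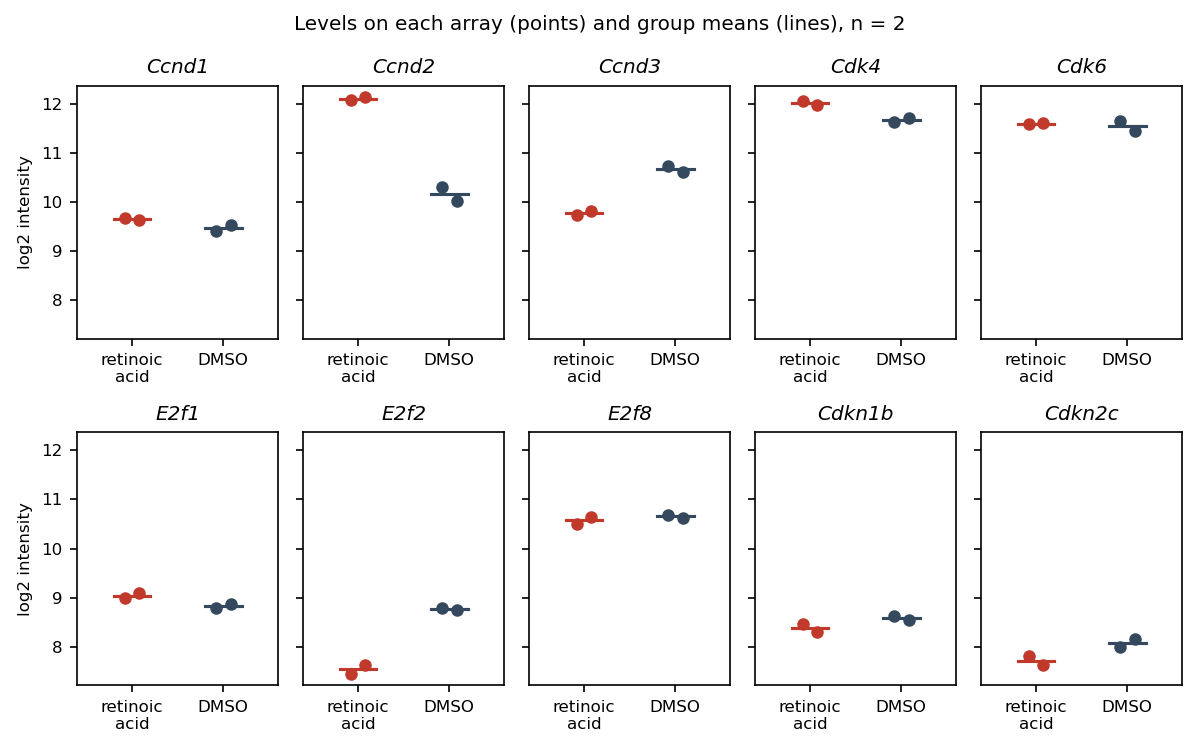
Log2 intensity of 10 G1 genes on each array, retinoic acid in red and DMSO in dark blue, with lines at the group means (n = 2). The retinoic acid points of Ccnd2 lie above 12 while its DMSO points lie near 10; Ccnd3 and E2f2 show the opposite order, and Cdk6 and E2f8 overlap.

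Of the 3 listed E2F genes, whose products drive S phase genes or, for E2f8, repress them, 1 passed, as lower. So did 1.79% of all genes and 3.79% of the bright genes. E2f2 (probe set 17420024), an activator, read 7.46 and 7.64 with retinoic acid, against 8.80 and 8.75 with DMSO. The groups were separated by over 1 log2 unit, and the log2 difference was -1.23 ± 0.10 (SE; limma adjusted p = 0.0127), with an interval of -1.48 to -0.98. E2f1, the other activator listed, read 8.99 and 9.10 with retinoic acid, against 8.80 and 8.87 with DMSO, a log2 difference of 0.21 ± 0.09 that did not pass (limma adjusted p = 0.408). E2f8 overlapped between the groups and differed by -0.08 ± 0.09. Outside the list, E2f3, E2f4, E2f5, E2f6 and E2f7 differed by -0.20, 0.17, -0.21, 0.21 and -0.38 on the log2 scale, and none passed.

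The remaining transcription factors did not pass. Myc, the growth regulator, read 10.88 and 11.00 with retinoic acid, against 10.70 and 10.63 with DMSO (log2 difference 0.27 ± 0.09, limma adjusted p = 0.284). Mybl2, a factor of late S phase, read 10.13 and 10.26 with retinoic acid, against 10.42 and 10.39 with DMSO (log2 difference -0.21 ± 0.09), and its dimmer probe set differed by -0.17 ± 0.08. Foxm1, which activates mitotic genes, differed by 0.01 ± 0.09, with a 95% interval of -0.21 to 0.23.

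The calls for Ccnd2, Ccnd3 and E2f2 depend on how the spread is estimated from so few arrays. With 2 arrays per group the smallest two-sided p of an exact permutation is 0.333, so they rest on limma's pooling of variance across probe sets. With any 1 array left out none of the 3 passed: adjusted p was 0.053 to 0.0793 for Ccnd2, 0.123 to 0.151 for Ccnd3 and 0.0631 to 0.117 for E2f2, while the log2 differences stayed at 1.80 to 2.09, -0.96 to -0.84 and -1.32 to -1.14. Leaving 1625 probe sets that hold a constant value in the fit also ended these calls (limma adjusted p = 0.0789, 0.0896 and 0.0811).

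Of 11 genes that license and fire replication origins, 9 were higher on both retinoic acid arrays than on either DMSO array and 0 were lower on both, beside 25.0% and 23.0% of all genes (34.0% and 29.1% of genes at least as bright as the dimmest listed gene). By limma 0 of the 11 passed, while 4 had an unadjusted p under 0.05, as did 15.1% of all genes and 2015 of the 7764 bright genes. The median log2 difference was 0.20. The 6 subunits of the Mcm2 to Mcm7 helicase, which unwinds DNA, each read higher on both retinoic acid arrays, with log2 differences from 0.13 (Mcm4) to 0.34 (Mcm5).

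Mcm5 read 11.51 and 11.59 with retinoic acid, against 11.21 and 11.21 with DMSO, a log2 difference of 0.34 ± 0.08 (limma adjusted p = 0.158). Mcm2 read 11.06 and 11.03 with retinoic acid, against 10.77 and 10.74 with DMSO, a log2 difference of 0.29 ± 0.08 (limma adjusted p = 0.201). Both showed replicates closer to each other than the groups were. Mcm3, Mcm7, Mcm6 and Mcm4 differed by 0.25 ± 0.08, 0.26 ± 0.08, 0.20 ± 0.08 and 0.13 ± 0.08. Mcm10, which helps start the helicase, differed by 0.20 ± 0.09, and Cdt1, which loads it, by 0.17 ± 0.10. Cdc6, the other loader, and Cdc45, which completes the active helicase, differed by 0.04 ± 0.08 and 0.08 ± 0.09. Gmnn encodes geminin, which blocks Cdt1; its arrays overlapped, with 8.87 and 8.66 with retinoic acid, against 8.82 and 8.97 with DMSO.

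Of 8 genes of DNA synthesis and nucleotide supply, 6 were higher on both retinoic acid arrays and 1, Rrm2, was lower on both, where 34.0% and 29.1% of the bright genes were. By limma 0 passed and 4 had an unadjusted p under 0.05, against 2015 of the 7764 bright genes, and the median log2 difference was 0.24. Prim1, the primase that starts each new strand, read 10.36 and 10.18 with retinoic acid, against 9.92 and 9.93 with DMSO (log2 difference 0.34 ± 0.09, limma adjusted p = 0.218). Pola1, the polymerase that extends its primers, differed by 0.25 ± 0.09, and Fen1, which trims them away, by 0.25 ± 0.09. A dimmer probe set of Fen1 overlapped between the groups, at -0.10 ± 0.11.

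Among enzymes that make nucleotides, Tyms and Tk1, both of the thymidylate supply, differed by 0.29 ± 0.11 and 0.24 ± 0.10. Rrm2, the small subunit of ribonucleotide reductase, read 10.54 and 10.62 with retinoic acid, against 10.75 and 10.90 with DMSO (log2 difference -0.25 ± 0.09, limma adjusted p = 0.359). The large subunit gene Rrm1 differed by 0.08 ± 0.08, with a 95% interval of -0.13 to 0.28, and neither subunit gene passed. Pcna, the sliding clamp of the polymerases, read 12.11 and 12.02 with retinoic acid, against 12.06 and 12.08 with DMSO. Its arrays overlapped, and the 95% interval of its log2 difference ran from -0.22 to 0.20.

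**Figure D3:**
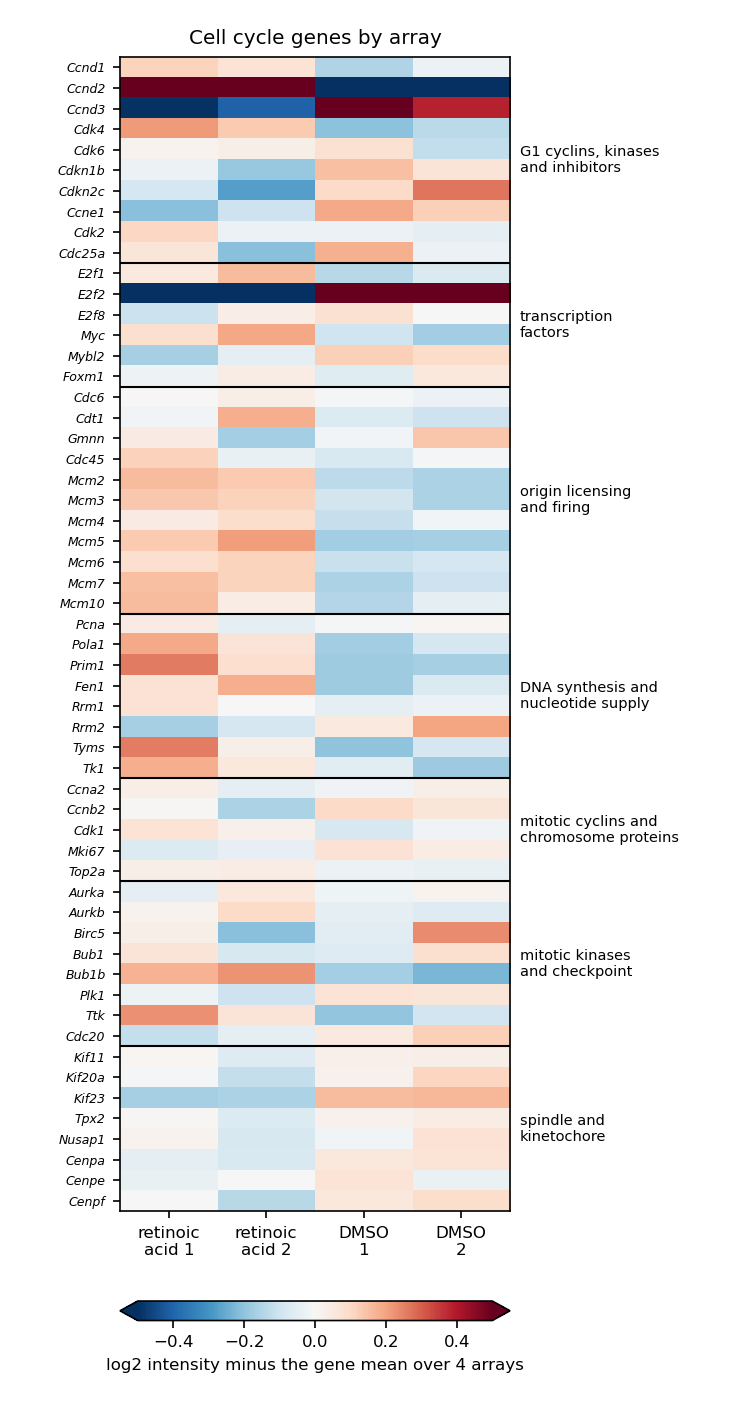
Log2 intensity of each gene on each array minus the gene's mean over the 4 arrays, by role, with colours ending at -0.5 and 0.5. The Mcm rows are red on both retinoic acid arrays and blue on both DMSO arrays, with paler cells in the Mcm4 and Mcm10 rows. Most mitotic rows are pale, but Bub1b and Ttk show the order of the Mcm rows and Kif23 the opposite, at a similar depth.

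Replication genes outside the list had differences of a similar size. Of 41, 27 were higher on both retinoic acid arrays (65.9%) and 2 were lower on both (4.88%), with a median log2 difference of 0.15. Among the bright genes, 34.0% were higher and 29.1% lower on both. By limma 0 of the 41 passed and 13 had an unadjusted p under 0.05, against 2015 of the 7764 bright genes. The largest difference was that of Lig1, the ligase that seals new DNA fragments. Genes of this list are named after their values were seen. Lig1 read 10.19 and 10.27 with retinoic acid, against 9.63 and 9.68 with DMSO (log2 difference 0.57 ± 0.08, limma adjusted p = 0.0503). Pole2 and Pola2, subunits of the replicative polymerases, differed by 0.46 ± 0.11 and 0.40 ± 0.08. Such genes come from the same RNA and are not independent of each other or of the listed genes.

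Mitotic genes stayed close to their DMSO level. Of 21, 0 passed by limma and 3 had an unadjusted p under 0.05, as did 2015 of the 7764 bright genes. Log2 differences of the 21 ran from -0.33 to 0.40, with a median of -0.06. On both retinoic acid arrays 5 read higher (23.8%) and 10 read lower (47.6%) than on either DMSO array, and 6 overlapped. Of the bright genes, 34.0% read higher and 29.1% lower on both. Over all 21, the lowest and highest bounds of the 95% intervals were -0.55 (Birc5) and 0.60 (Bub1b), so a 2-fold change of any of them lay outside its interval.

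Ccna2, the cyclin of S phase and early mitosis, read 11.84 and 11.76 with retinoic acid, against 11.79 and 11.84 with DMSO, and Ccnb2, a cyclin of mitotic entry, read 11.05 and 10.89 with retinoic acid, against 11.14 and 11.11 with DMSO. Their kinase Cdk1 differed by 0.10 ± 0.08. Mki67 differed by -0.11 ± 0.08 and Top2a by 0.07 ± 0.07. Of these 5 genes, the lowest log2 difference was that of Ccnb2, at -0.15.

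Among mitotic kinases and the spindle checkpoint, Bub1b, which holds anaphase until chromosomes attach, read 10.42 and 10.47 with retinoic acid, against 10.08 and 10.02 with DMSO (log2 difference 0.40 ± 0.08, limma adjusted p = 0.115). Ttk, another checkpoint kinase, read 9.88 and 9.71 with retinoic acid, against 9.45 and 9.55 with DMSO (log2 difference 0.29 ± 0.10, limma adjusted p = 0.306). Both lay apart between the groups without passing. Bub1b passed when only probe sets with 1 symbol were tested (limma adjusted p = 0.0312). The related kinase gene Bub1 overlapped, at -0.02 ± 0.10. Aurka and Aurkb, the Aurora kinases of spindle poles and of chromosomes, differed by 0.01 ± 0.08 and 0.11 ± 0.08, and Plk1, the polo-like kinase, by -0.13 ± 0.08. Cdc20, which activates the anaphase ubiquitin ligase, differed by -0.16 ± 0.08. Birc5, which encodes survivin, varied most between replicates, at 9.23 and 8.99 with retinoic acid, against 9.14 and 9.43 with DMSO.

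All 8 spindle and kinetochore genes had differences below 0, from -0.04 to -0.33, and 6 read lower on both retinoic acid arrays, as did 23.0% of all genes and 29.1% of the bright genes. Differences lay below 0 for 3614 of the 7764 bright genes, and for 23 of 49 mitotic genes outside the list, with 26 above 0. Without DMSO replicate 1 the difference of Cenpe turned to 0.01. By limma 0 of the 8 passed and 1 had an unadjusted p under 0.05, as did 2015 of the 7764 bright genes. Kif23, a kinesin of the midzone where daughter cells part, read 11.02 and 11.03 with retinoic acid, against 11.35 and 11.36 with DMSO. Its replicates nearly coincided within each group, and its log2 difference of -0.33 ± 0.07 did not pass (limma adjusted p = 0.156), although it did with an intensity trend in the variance prior (0.0447). Kif11 and Kif20a, kinesins of spindle assembly and of cytokinesis, differed by -0.05 ± 0.08 and -0.13 ± 0.09. The microtubule proteins Tpx2 and Nusap1 each differed by -0.06, and the kinetochore genes Cenpa, Cenpe and Cenpf by -0.12, -0.04 and -0.14. Kif11 read 11.15 and 11.07 with retinoic acid, against 11.16 and 11.16 with DMSO.

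**Figure D4:**
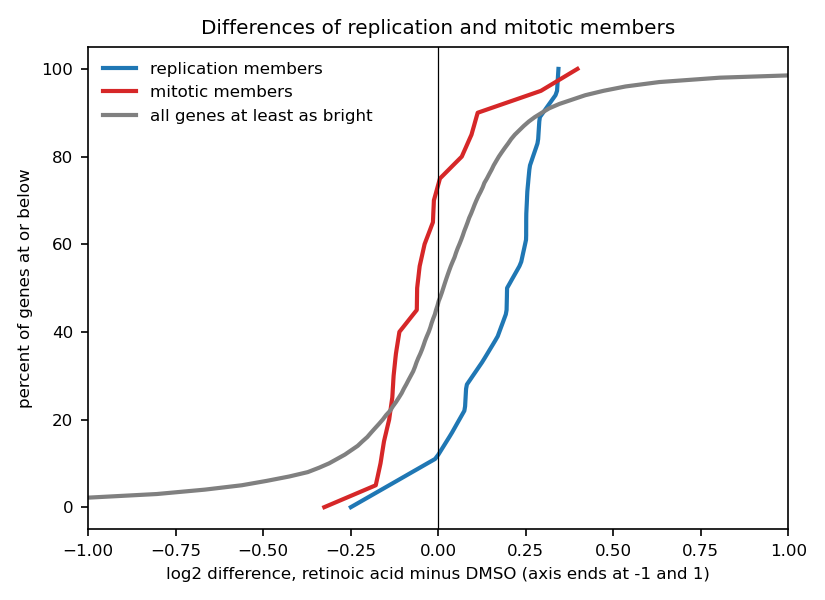
Cumulative percent of genes by log2 difference, retinoic acid minus DMSO, for the 19 replication genes (blue), the 21 mitotic genes (red) and the 7764 genes at least as bright as the dimmest listed gene (grey), with the axis ending at -1 and 1. The blue curve has its median at 0.20, the red at -0.06 and the grey at 0.01.

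Of 49 mitotic genes outside the list, 0 passed by limma, 6 had an unadjusted p under 0.05, and the median log2 difference was 0.01. Of all genes 15.1% had an unadjusted p under 0.05, as did 2015 of the 7764 bright genes. On both retinoic acid arrays 13 read higher (26.5%) and 11 lower (22.4%) than on either DMSO array, and 25 overlapped. These shares are near the 25.0% and 23.0% of all genes, and the bright genes had 34.0% and 29.1%. Set side by side, the median was 0.20 over the 19 listed replication genes and -0.06 over the 21 listed mitotic genes, against 0.15 and 0.01 in the outside lists; whether replication and mitotic genes differ was not tested. The smallest difference that passed in any of the 22180 genes was 0.54 on the log2 scale, or 1.45-fold, and all 6 Mcm2 to Mcm7 differences lay below it.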

How the data were processed

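RNA of 2 retinoic acid and 2 DMSO samples was read on 1-colour Affymetrix whole-transcript arrays from 250 ng of RNA, per the labels' protocols. Values deposited by the authors were intensities, 1 for each probe set on each array, made with Affymetrix Expression Console and RMA per the submitters' processing notes; versions and a genome build were not given in the sources used here. RMA smooths background, which understates differences of dim genes. The deposited intensities were linear and were transformed to log2 here, without further scaling.

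Of 41345 probe sets, 1625 held 1 constant value on all arrays and were left out. The remaining 39720 were fitted with limma 3.58.1 in R 4.3.3 (lmFit, eBayes, two-sided, no covariates, prior degrees of freedom 2.76), checked on simulated data, and Benjamini-Hochberg adjustment ran over all of them. The threshold was an adjusted p under 0.05. Errors are limma's SE, and intervals use its moderated variance. The number of arrays limits the precision, and no batch was given in the labels.

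The platform annotation gave 23521 probe sets 1 symbol, 1814 several and 16010 none. Each of the 56 genes' identifiers was in the RefSeq gene table. Of several probe sets for a gene, the one brightest on average stood for it, and 3 listed genes had 2. The dim level is the 95th percentile over 1400 receptor probe sets. Every listed gene that passed was named, with the brightest and the most changed gene of each role and all members of small families. Outside the list, genes that passed and the remaining E2F factors and kinase inhibitors were named. Lig1, Pole2, Pola2, Mycn, Btg2 and the markers Itgam, Fcgr1, S100a9, Prtn3 and Elane were added after their values were seen. The gene list, the roles, the outside lists and the tests were chosen with earlier results of these data known. Alternatives covered the constant probe sets, filters, scaling, the variance prior, a replicate block and leaving out each array.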

Additional observations from a re-analysis of the deposited data

How the results depend on the processing

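Over all probe sets limma passed 359 as higher and 472 as lower with retinoic acid; over the 56 listed genes 1 and 2 passed, and over the 119 other cell cycle genes 0 and 2. With the constant probe sets kept, all of these counts were 0 (smallest adjusted p = 0.0535, 6260 probe sets at an unadjusted p under 0.05), with prior degrees of freedom of 0.898. With only probe sets of 1 symbol, 757 and 879 probe sets passed, 2 listed genes rose (Bub1b joined Ccnd2), and 4 and 5 other cell cycle genes passed. With only probe sets brighter than the median, 545 probe sets passed as higher, as did 2 other cell cycle genes. Repeated quantile normalization passed 1 other gene as higher (Mycn), and equal array medians 2 (Lig1 and Mycn). An intensity trend in the variance prior passed 2 listed genes (Mcm5 joined Ccnd2) and 3 other genes as higher, and Kif23 as lower. Averaging a gene's probe sets passed 2 listed genes as higher. Without any 1 array, 12 to 30 probe sets passed as higher and 13 to 25 as lower, and 0 to 0 listed or other cell cycle genes in either direction (a lone array is then assumed to vary like the other group). The cause of these differences was not tested, and some of the fits held fewer probe sets or arrays.

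Same-numbered arrays did not deviate together (correlation of deviations -0.251), so the numbers are not taken as pairs. With the replicate number as a block, 73 and 88 probe sets passed; Ccnd2 passed (adjusted p = 0.0464), and 0 listed and 0 other genes passed as lower (Cdkn1a 0.0974, Tob1 0.168). With the numbers crossed, an alternative chosen after seeing the data, 194 and 263 probe sets and 0 other genes as lower passed.

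The median difference stayed at 0.17 to 0.21 for replication genes and at -0.10 to -0.05 for mitotic genes over all 13 alternatives, and single Mcm2 to Mcm7 differences at 0.08 to 0.38. Among listed genes that did not pass, Pcna changed sign under repeated quantile normalization, and 3 to 5 genes near 0 did so without retinoic acid replicate 2 or either DMSO array. No depth can be given for arrays; all listed genes lay above the dim level.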
